A study of Homo sapiens with 6 samples.

Results

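The genes that make, shorten and degrade the 3' ends of messenger RNA were followed in 6 RNA-seq libraries of PC-3, an established human prostate cancer line that was derived from a metastasis in bone. They were taken by symbol from the protein-coding genes of the count table. They comprise the cleavage and polyadenylation factors (CPSF and CSTF genes and NUDT21), the poly(A)-binding proteins (PABP genes), the deadenylases (CNOT and PAN genes), the decapping factors and 5' to 3' nucleases (DCP, EDC and XRN genes), the exosome (EXOSC genes), the nonsense-mediated decay factors (UPF and SMG genes) and the ZFP36 proteins. The rule found 61 genes among 30651 listed, and 58 of them had enough counts to be tested, among 15423 tested genes. The shMTA1 group held 3 libraries, labelled MTA1, whose data columns have the prefix sh, which commonly stands for short hairpin RNA. The Ctrl group held 3 libraries, whose data columns have the prefix NC. MTA1 is a subunit of the NuRD complex, which removes acetyl groups from histones and moves nucleosomes. Both groups are PC-3 cells without any other stated genotype or agent. The labels name lentivirus and the screening of stable clones, but not the number of hairpins or clones, and no label speaks of separate cultures. The p-values thus measure the spread between these libraries only, and that spread may be technical.

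A messenger RNA is cut near its end by a complex that reads the AAUAAA signal and the sequences around it, and a poly(A) tail is then added. Poly(A)-binding proteins cover the tail and link it to translation and stability. Decay usually begins when the PAN2-PAN3 and CCR4-NOT deadenylases shorten the tail. The message is then either decapped and digested by XRN1 from the 5' end, or digested by the exosome from the 3' end. Nonsense-mediated decay removes messages with premature stop codons through UPF1, and the ZFP36 proteins bring CCR4-NOT to messages with AU-rich elements, many of them for cytokines and growth factors.

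MTA1 (ENSG00000182979.18, on chromosome 14 per the files) had 528, 572 and 519 counts in the shMTA1 libraries and 1185, 1331 and 1352 counts in the Ctrl libraries. Its level was 17.4 ± 0.660 CPM (read counts relative to a TMM-scaled library size) in shMTA1 and 40.0 ± 1.47 CPM in Ctrl (SD, n = 3 each), a log2 fold change of shMTA1 over Ctrl of -1.21 ± 0.054 (SE, edgeR adjusted p = 4.3e-13). The libraries held 29909172 to 30938820 counts in shMTA1 and 31726013 to 33849262 counts in Ctrl. Mitochondrial genes took 7.10% to 7.77% of the counts in shMTA1 and 5.31% to 5.81% in Ctrl, and ribosomal protein genes took 9.34% to 9.50% in shMTA1 and 12.6% to 12.7% in Ctrl. The part of this shift in the results was not tested beyond the scalings tried. Of 5 genes listed as markers present in PC-3, 2 were higher and 2 lower in shMTA1 at an edgeR adjusted p under 0.05. The epithelial keratin KRT8 was lower, at 1541 CPM in shMTA1 and 1886 CPM in Ctrl. EPCAM was higher, at 25.4 CPM in shMTA1 and 17.4 CPM in Ctrl, as was KRT19 (log2 fold change 0.17). The call of KRT19 was lost with the DESeq2 Wald test (adjusted p = 0.13), and KRT18 did not pass. HOXB13, a prostate transcription factor listed as a marker, was at only 0.623 CPM in shMTA1 and 1.58 CPM in Ctrl. KLK3 had at most 1 count in any library. Of 8 markers of fibroblasts, leukocytes and endothelium, 7 were listed, and their summed level was 43.4 to 45.5 CPM in shMTA1 and 55.2 to 61.4 CPM in Ctrl. The leukocyte genes PTPRC and CD68 had at most 3 counts in any library. Other markers of this list were present. LUM stood at 13.9 CPM in shMTA1 and 12.6 CPM in Ctrl. The endothelial gene PECAM1 stood at 10.3 CPM in shMTA1 and 11.3 CPM in Ctrl. DCN had 1.36 CPM in shMTA1 and 0.987 CPM in Ctrl, and COL3A1 had 2.25 CPM in shMTA1 and 2.46 CPM in Ctrl. The collagen COL1A1 stood at 16.4 CPM in shMTA1 and 31.6 CPM in Ctrl. It was the only one of 5 tested markers of other cells that differed at an adjusted p under 0.05. The part of these markers in the results was not tested. In bulk RNA, fewer cells of a kind and less RNA per cell cannot be told apart.

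The members changed about as often as other genes, and by small amounts. At an edgeR quasi-likelihood adjusted p under 0.05, 58.1% of all tested genes passed, 29.5% higher and 28.6% lower in shMTA1. Among the 12655 tested protein-coding genes, the type of all members, 61.4% passed, 31.6% higher and 29.8% lower. Of the 58 tested members, 32 passed (55.2%), 16 higher and 16 lower, and 26 did not. A share this near the background is not a result about the members as a whole. Scaling by library size only gave 21 higher and 13 lower, and limma on log2(FPKM + 0.1) gave 19 higher and 10 lower. Against a minimum fold of 1.2, which asks whether a change is larger than 1.2-fold in either direction, 30.1% of all tested genes passed. The share was 30.6% over the tested protein-coding genes. Of the members, 10 (17.2%) passed this test, 5 in each direction, where 15.5% of all tested genes passed as higher and 14.7% as lower. CSTF2, PABPC1L, PABPC4, UPF1 and SMG5 were higher, and NUDT21, CNOT7, CNOT6, EXOSC9 and ZFP36L2 were lower. The 5 that were higher became 3 without shMTA1 replicate 1, Ctrl replicate 1 or Ctrl replicate 3, and 9 with scaling by library size only. The 3 shMTA1 libraries did not overlap with the 3 Ctrl libraries in 33 members (56.9%), 17 above and 16 below. This stands beside 62.7% of all tested genes and 65.7% of the tested protein-coding genes.

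The median absolute log2 fold change was 0.15 over the members, 0.27 over the 12655 tested protein-coding genes and 0.29 over all tested genes. These medians are descriptions, with no test between them, and genes of low count scatter more. PABPC1L was the only member that differed by 2-fold or more. The median signed log2 fold change was 0.02 over the members and 0.002 over all tested genes. The summed level of the members was 3509 ± 26.7 CPM in shMTA1 and 3513 ± 45.8 CPM in Ctrl. These TMM-scaled totals differed by less than the spread between libraries, while single genes moved both ways. As a share of all counts, without TMM, the members took 0.356% to 0.363% in shMTA1 and 0.340% to 0.346% in Ctrl, with every shMTA1 library higher. A member called higher or lower below passed the adjusted p, and single changes are given as log2 fold changes of shMTA1 over Ctrl ± SE.

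**Figure D1:**
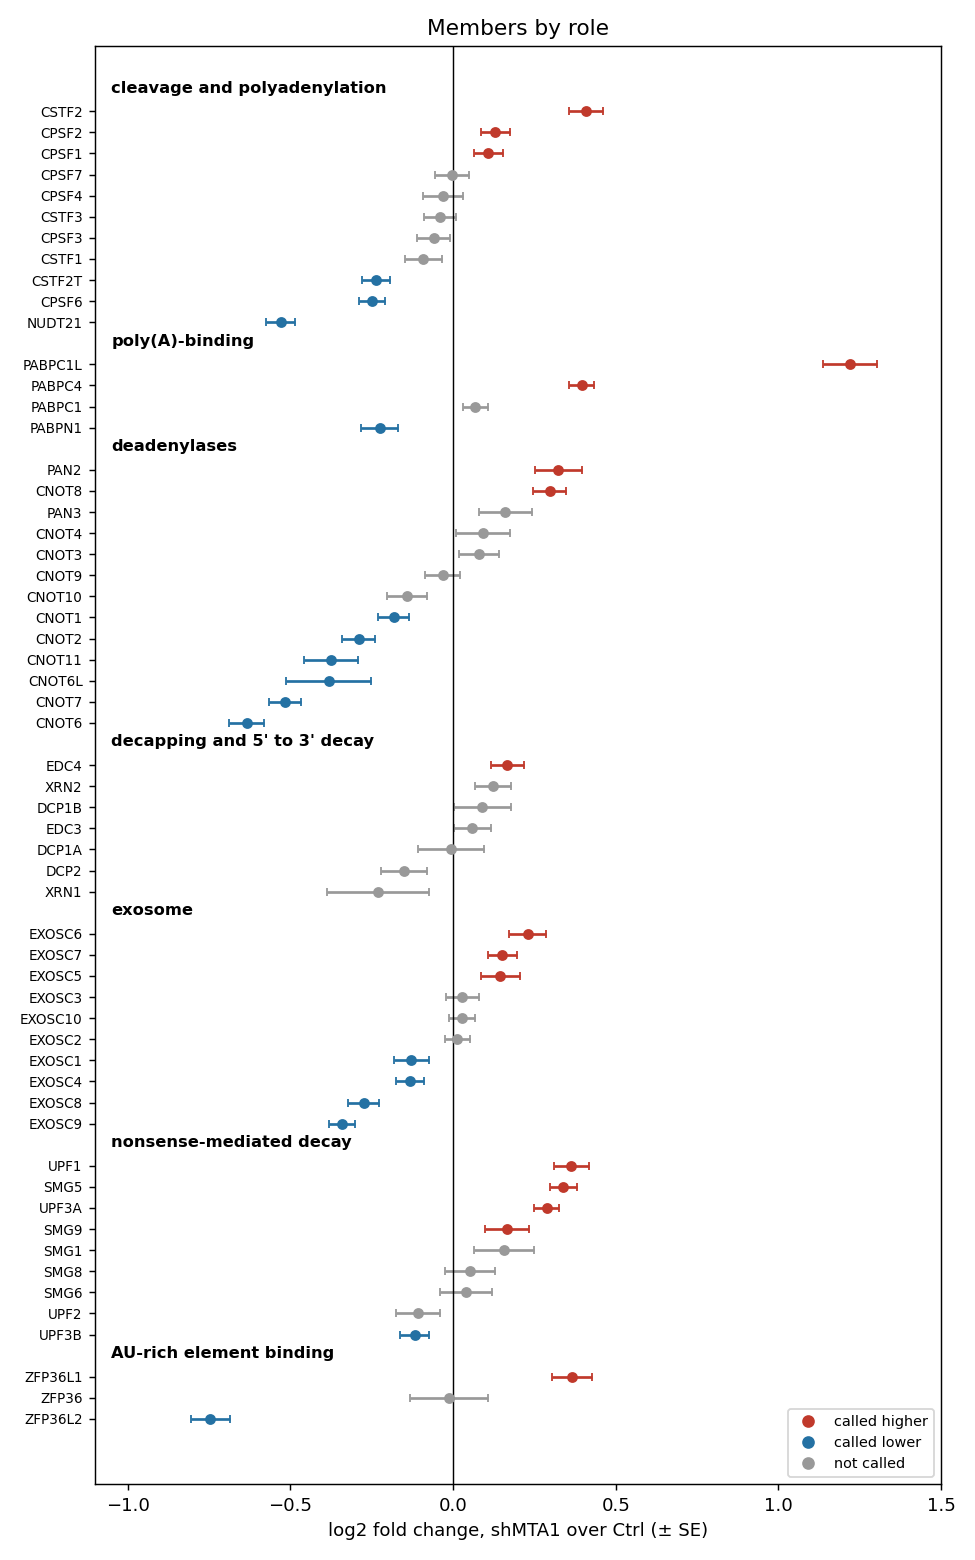
Log2 fold change of shMTA1 over Ctrl with its SE for the members described in the text, ordered by role (n = 3 libraries each), with called members in colour. PABPC1L stands at 1.22, ZFP36L2 at -0.75 is the lowest, and most members lie within 0.40 of 0.

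**Figure D2:**
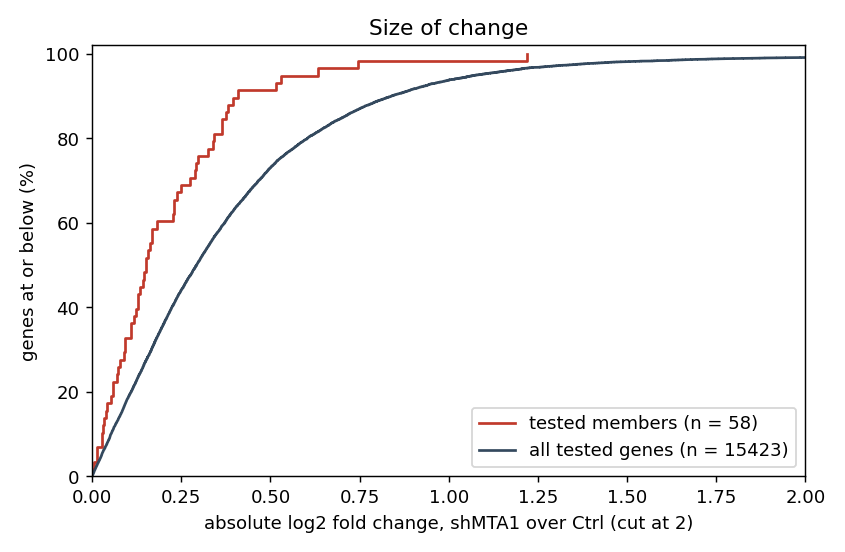
Cumulative share of genes, in percent, at or below each absolute log2 fold change, for the 58 tested members and all 15423 tested genes. The curve of the members lies to the left, with medians of 0.15 against 0.29, and the x axis ends at 2.

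The 250 bases before the start of 4 members are shown so that the motif counts that follow can be read on the letters. They are the 2 largest rises and the 2 largest falls among the members past the 1.2-fold test that have a single printable entry among RefSeq promoters on GRCh38.p14. Capitals mark matches on either strand to the CCAAT box (CCAAT), the GC box (GGGCGG) and an ETS site (CCGGAAG). PABPC1L lies at chr20:44909810-44910059 (plus strand), CSTF2 at chrX:100820141-100820390 (plus strand), CNOT6 at chr5:180494129-180494378 (plus strand) and NUDT21 at chr16:56451333-56451582 (minus strand), each written 5' to 3' on the gene's strand.
PABPC1L: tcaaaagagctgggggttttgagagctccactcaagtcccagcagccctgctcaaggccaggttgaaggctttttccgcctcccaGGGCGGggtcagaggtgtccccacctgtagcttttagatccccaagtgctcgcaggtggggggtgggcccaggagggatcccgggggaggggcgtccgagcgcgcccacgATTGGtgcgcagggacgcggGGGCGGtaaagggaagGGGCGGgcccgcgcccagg
CSTF2: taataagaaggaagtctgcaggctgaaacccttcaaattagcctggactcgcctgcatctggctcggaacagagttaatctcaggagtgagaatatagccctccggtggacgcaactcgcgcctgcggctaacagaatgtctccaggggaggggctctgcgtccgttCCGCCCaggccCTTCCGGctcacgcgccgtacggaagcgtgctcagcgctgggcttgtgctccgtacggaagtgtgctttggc
CNOT6: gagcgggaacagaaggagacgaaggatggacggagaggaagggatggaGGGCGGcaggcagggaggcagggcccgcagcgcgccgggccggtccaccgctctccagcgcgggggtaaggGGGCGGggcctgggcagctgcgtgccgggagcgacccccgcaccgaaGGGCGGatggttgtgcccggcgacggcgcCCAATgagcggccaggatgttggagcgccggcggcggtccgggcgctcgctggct
NUDT21: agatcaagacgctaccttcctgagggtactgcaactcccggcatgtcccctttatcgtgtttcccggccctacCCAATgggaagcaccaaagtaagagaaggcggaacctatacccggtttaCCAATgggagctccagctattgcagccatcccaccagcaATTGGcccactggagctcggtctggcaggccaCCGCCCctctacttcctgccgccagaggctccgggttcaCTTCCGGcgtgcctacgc

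GC boxes were frequent and TATA boxes rare upstream of the members. Of the 58 tested members, 48 had an entry in the RefSeq promoter table, with 68 entries in all. A GC box was found in 66.2% of these entries and in 42.6% of all 35116 promoters of the same length. A CCAAT box was found in 38.2% of the members' entries and in 32% of all promoters. A TATA box (TATAAA) was found in 1.47% of the members' entries and in 10.7% of all. By direction, a GC box stood in 11 of 21 entries of members called higher, in 14 of 16 entries of members called lower and in 20 of 31 entries of members not called. A CCAAT box stood in 8 of 21, 8 of 16 and 10 of 31 of these entries. In the same order, an NRF1 site stood in 4, 0 and 6 entries, an ETS site in 2, 1 and 6, and ACGTG in 4, 6 and 10. NUDT21 had 3 CCAAT boxes, while PABPC1L and CNOT6 had 1 CCAAT box and 3 GC boxes each although they moved in opposite directions. These are matches of letters in a window, described without a test, and say nothing of whether a factor binds.

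Among the cleavage and polyadenylation factors, 3 of 11 tested genes rose, 3 fell and 5 did not pass. The share of 27.3% each way is near the 29.5% and 28.6% of all tested genes. The group's median log2 fold change was -0.04, against 0.002 over all tested genes. CSTF2, the CstF-64 subunit that binds the GU-rich sequence downstream of the cleavage site, rose. CSTF2 (ENSG00000101811.14, chromosome X) had 69.9, 73.3 and 79.9 CPM in the shMTA1 libraries, against 55.0, 59.0 and 54.3 CPM in the Ctrl libraries. Every shMTA1 library was above every Ctrl library, with a log2 fold change of 0.41 ± 0.052 (edgeR adjusted p = 1.3e-06). CSTF2T, its close paralog tauCstF-64, fell in the same libraries. CSTF2T had 69.7, 67.3 and 69.8 CPM in shMTA1 and 80.8, 79.0 and 84.0 CPM in Ctrl, a log2 fold change of -0.24 ± 0.043 (edgeR adjusted p = 9.8e-05).

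Both genes of the usual CFIm complex fell. NUDT21 encodes its small subunit CFIm25, which binds UGUA upstream of the cleavage site and is known for its part in the choice between cleavage sites. NUDT21 (ENSG00000167005.14, chromosome 16) had 47.9, 47.5 and 49.5 CPM in shMTA1 libraries and 71.7, 68.9 and 68.7 CPM in Ctrl libraries. The groups lay far apart relative to their spread (-0.53 ± 0.045, edgeR adjusted p = 3.8e-09). CPSF6 encodes the large subunit CFIm68 and had the highest FPKM of these factors. CPSF6 had 267, 277 and 276 CPM in shMTA1 and 319, 316 and 339.7 CPM in Ctrl (-0.25 ± 0.041, edgeR adjusted p = 2.6e-05), again with no overlap. CPSF7, which encodes the alternative large subunit CFIm59, did not pass, at 0.00 ± 0.051.

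The core of CPSF moved little. CPSF2 (0.13 ± 0.044) and CPSF1 (0.11 ± 0.045) were called higher over all 6 libraries, but both calls depended on single libraries, and that of CPSF1 also on the method. Without shMTA1 replicate 1 or 2 or Ctrl replicate 1 or 2, CPSF2 had adjusted p of 0.066, 0.055, 0.066 and 0.053. Without shMTA1 replicate 2 or 3 or any single Ctrl replicate, CPSF1 had adjusted p of 0.058, 0.17, 0.12, 0.051 and 0.15. With all libraries, CPSF1 lost its call under DESeq2 size factors (adjusted p = 0.057), no filter (0.073) and the DESeq2 Wald test (0.106). CSTF3, the CstF-77 scaffold, had the highest CPM of the uncalled genes of the class, with 68.9, 71.0 and 62.6 CPM in shMTA1 and 69.4, 68.2 and 70.7 CPM in Ctrl (-0.04 ± 0.049, edgeR adjusted p = 0.50). The endonuclease CPSF3 (-0.06), CPSF4 (-0.03) and CSTF1 (-0.09) did not pass either. CPSF4L was not tested, with 1, 1 and 0 counts in shMTA1 and 0, 0 and 1 counts in Ctrl.

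The poly(A)-binding proteins held the largest change of all members. PABPC1L, a cytoplasmic poly(A)-binding protein known from oocytes, rose 2.33-fold. PABPC1L (ENSG00000101104.13, chromosome 20) had 23.1, 24.5 and 27.8 CPM in shMTA1 libraries and 9.35, 12.1 and 10.9 CPM in Ctrl libraries. The lowest shMTA1 library was well above the highest Ctrl library (1.22 ± 0.083, edgeR adjusted p = 1.5e-10). PABPC4, the inducible cytoplasmic form, rose too. PABPC4 (ENSG00000090621.15, chromosome 1) had 191, 194 and 193 CPM in shMTA1 and 146, 143 and 149 CPM in Ctrl (0.40 ± 0.038, edgeR adjusted p = 3.0e-08). Replicates within a group were close together for this gene.

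PABPC1, the main cytoplasmic form, had the highest CPM of the members, a scale not corrected for length. PABPC1 had 505, 489.9 and 513 CPM in shMTA1 and 477, 479 and 482 CPM in Ctrl, and its log2 fold change of 0.07 ± 0.038 did not pass (edgeR adjusted p = 0.13). It passed as higher with scaling by library size only (0.14, adjusted p = 0.0044) and with limma on log2(FPKM + 0.1) (0.14, adjusted p = 0.0088). PABPN1, the nuclear form that sets tail length during polyadenylation, was lower. PABPN1 had 49.4, 52.7 and 55.4 CPM in shMTA1 and 57.3, 60.3 and 66.5 CPM in Ctrl (-0.23 ± 0.056, edgeR adjusted p = 0.0018). That call was lost with limma on log2(FPKM + 0.1) (-0.16, adjusted p = 0.084). PABPC3, with 3 to 5 counts in the shMTA1 libraries and 3 to 6 counts in the Ctrl libraries, was not tested. Nor was PABPC4L, with 0 to 2 counts in the shMTA1 libraries and 1 to 4 counts in the Ctrl libraries. PABPC1 has many processed pseudogenes, and those listed held at most 1 count in any library, though reads can still be shared.

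**Figure D3:**
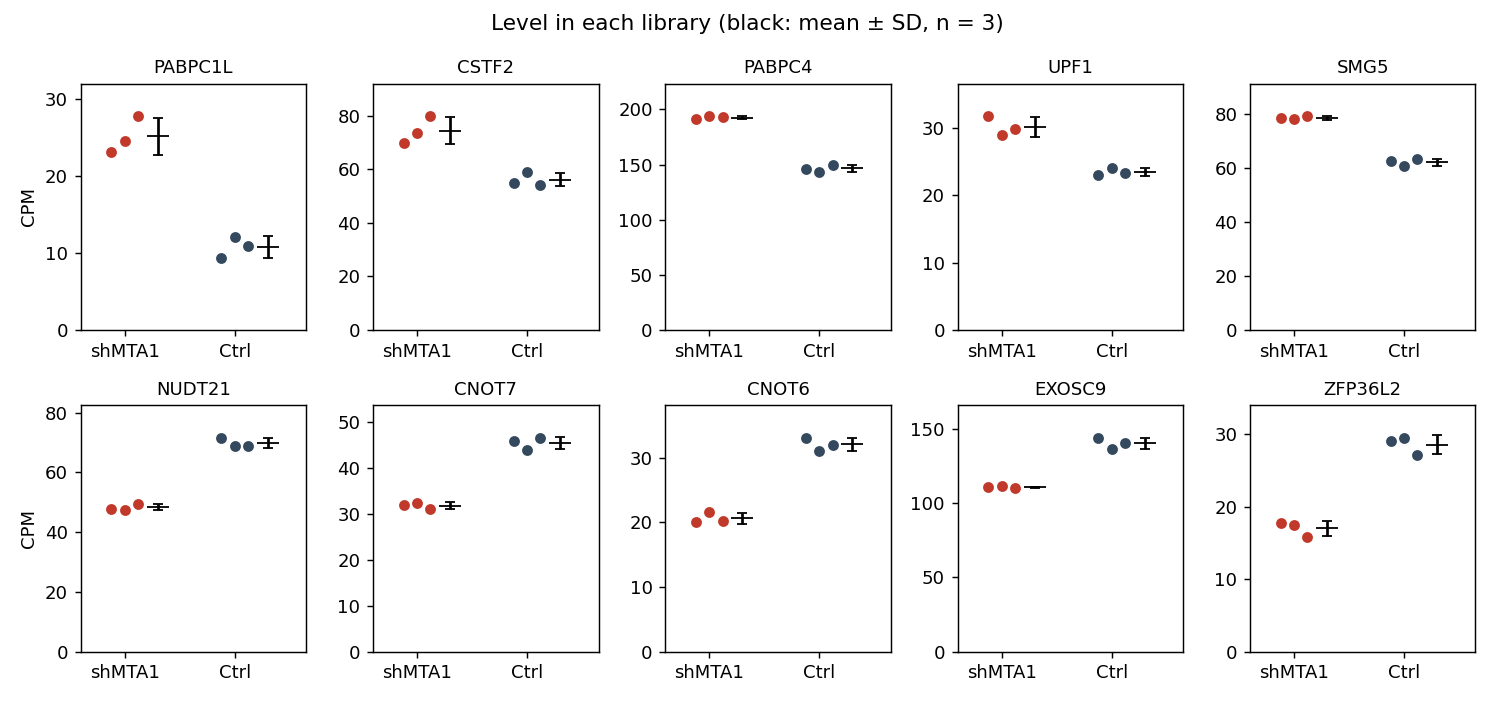
CPM in each library (points) with mean ± SD (black, n = 3) for the 10 members that passed the 1.2-fold test, shMTA1 left and Ctrl right, with each axis starting at 0. In none of these genes do the libraries of the groups overlap, and PABPC1L shows the widest gap relative to its level, at 25.1 CPM against 10.8 CPM in mean.

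Most of the deadenylase genes that changed were lower in shMTA1. Of 13 tested, 2 rose and 6 fell, where 29.5% of all tested genes rose and 28.6% fell. The median was -0.14. Of the 11 CNOT genes alone, 1 rose and 6 fell. CCR4-NOT has 2 pairs of alternative nucleases, CNOT6 or CNOT6L and CNOT7 or CNOT8, and 3 of these 4 genes fell. CNOT6 (ENSG00000113300.13, chromosome 5) had 20.1, 21.6 and 20.2 CPM in shMTA1 libraries and 33.1, 31.1 and 32.0 CPM in Ctrl libraries, with no overlap (-0.63 ± 0.054, edgeR adjusted p = 4.3e-09). CNOT7 (ENSG00000198791.12, chromosome 8) had 32.0, 32.5 and 31.1 CPM in shMTA1 and 45.9, 44.0 and 46.7 CPM in Ctrl (-0.52 ± 0.049, edgeR adjusted p = 2.2e-08). In both genes the SD within each group was at most 1.38 CPM.

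CNOT6L had the lowest FPKM of the nucleases of the complex. CNOT6L had 2.59, 3.44 and 3.16 CPM in shMTA1 and 3.95, 4.31 and 3.74 CPM in Ctrl (-0.38 ± 0.130, edgeR adjusted p = 0.016). Its call was lost without shMTA1 replicate 1 (-0.28, adjusted p = 0.098) and without Ctrl replicate 2 (-0.33, adjusted p = 0.065). With all libraries, it was also lost with limma on log2(FPKM + 0.1) (-0.24, adjusted p = 0.102). CNOT8, the alternative to CNOT7, went the other way. CNOT8 had 53.5, 54.5 and 58.7 CPM in shMTA1 and 43.3, 45.7 and 46.8 CPM in Ctrl, with no overlap (0.30 ± 0.050, edgeR adjusted p = 3.9e-05).

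Among the subunits without nuclease activity, CNOT11 (-0.37 ± 0.083), CNOT2 (-0.29 ± 0.051) and the scaffold CNOT1 (-0.18 ± 0.047) fell. The call of CNOT1 was lost with limma on log2(FPKM + 0.1) (-0.11, adjusted p = 0.075). CNOT10, the partner of CNOT11, stood at -0.14 ± 0.062 and just missed the threshold (edgeR adjusted p = 0.055). It passed as lower without shMTA1 replicate 1 (adjusted p = 0.041), shMTA1 replicate 3 (0.040) or Ctrl replicate 1 (0.031). With all libraries, CNOT10 also passed in edgeR with DESeq2 size factors (adjusted p = 0.045), upper-quartile scaling (0.047) or a filter of 1 CPM in 3 libraries (0.046). CNOT9, which docks partner proteins, had the highest CPM of the uncalled deadenylase genes, with 68.6, 71.2 and 61.4 CPM in shMTA1 and 68.7, 66.2 and 70.9 CPM in Ctrl (-0.03 ± 0.052, edgeR adjusted p = 0.62). CNOT3 (0.08) and the ubiquitin ligase CNOT4 (0.09) did not pass.

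PAN2, the nuclease of the other deadenylase, rose. PAN2 had 12.4, 14.3 and 14.2 CPM in shMTA1 and 10.8, 10.9 and 11.1 CPM in Ctrl (0.32 ± 0.072, edgeR adjusted p = 0.00074). Its partner PAN3 stood at 0.16 ± 0.082 and did not pass (edgeR adjusted p = 0.10), though it did without Ctrl replicate 1 (0.25, adjusted p = 0.018). PAN3 also passed with scaling by library size only (0.23, adjusted p = 0.024).

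The decapping and 5' to 3' decay genes had the fewest calls for their number. Of 7 tested, EDC4 rose and none fell (14.3% called, against 58.1% of all tested genes), with a median of 0.06. EDC4, a scaffold that activates decapping, had 51.6, 55.7 and 54.3 CPM in shMTA1 and 45.1, 49.7 and 49.1 CPM in Ctrl (0.17 ± 0.050, edgeR adjusted p = 0.0076). Ctrl replicate 1 decided this call, and without it the log2 fold change was 0.12 (adjusted p = 0.069). XRN2, the nuclear 5' to 3' nuclease that also acts in transcription termination, had 37.3, 39.0 and 43.1 CPM in shMTA1 and 35.4, 36.0 and 38.2 CPM in Ctrl. The groups overlapped and the difference of 0.12 ± 0.057 did not pass (edgeR adjusted p = 0.071), but it did without shMTA1 replicate 1 (0.17, adjusted p = 0.019), with scaling by library size only (0.19, adjusted p = 0.0080) and with limma on log2(FPKM + 0.1) (0.19, adjusted p = 0.038). The decapping enzyme DCP2 (-0.15 ± 0.070) passed only without Ctrl replicate 2 (-0.20, adjusted p = 0.039). Its activators DCP1A (-0.01) and DCP1B (0.09), EDC3 (0.06) and the cytoplasmic nuclease XRN1 (-0.23 ± 0.156), the last at 2.13 to 3.03 CPM in shMTA1 and 2.59 to 3.53 CPM in Ctrl, did not pass.

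Single exosome subunits differed in direction. Of 10 tested, 3 rose, 4 fell and 3 did not pass, with a median of 0.02, and these shares of 30% and 40% stand beside 29.5% and 28.6% of all tested genes. The human exosome core is a ring of 6 proteins related to RNase PH, EXOSC4 to EXOSC9, under a cap of EXOSC1, EXOSC2 and EXOSC3, with EXOSC10 as a nuclear nuclease. Within the ring, EXOSC9 fell most. EXOSC9 (ENSG00000123737.13, chromosome 4) had 111, 111 and 110.3 CPM in shMTA1 libraries and 144, 137 and 140.4 CPM in Ctrl libraries (-0.34 ± 0.040, edgeR adjusted p = 3.6e-07). EXOSC8 had 49.5, 49.1 and 46.5 CPM in shMTA1 and 60.9, 56.3 and 58.3 CPM in Ctrl (-0.27 ± 0.048, edgeR adjusted p = 5.6e-05). Neither gene's groups overlapped. EXOSC6, in the same ring, had 25.4, 24.1 and 22.5 CPM in shMTA1 and 20.6, 20.5 and 20.3 CPM in Ctrl, and rose (0.23 ± 0.057, edgeR adjusted p = 0.0018).

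The other changes of exosome genes were small, and their calls did not hold throughout. EXOSC7 (0.15 ± 0.044) was called higher, but not without Ctrl replicate 2 (0.11, adjusted p = 0.060). EXOSC5 (0.15 ± 0.061) was called higher (edgeR adjusted p = 0.048), but with all libraries the call was lost under DESeq2 size factors (adjusted p = 0.056), no filter (0.069), the DESeq2 Wald test (0.147) and limma-voom (0.059). With 1 library left out it held only without shMTA1 replicate 2, its adjusted p reaching 0.18 without shMTA1 replicate 3, and 0.086, 0.15, 0.086 and 0.089 without shMTA1 replicate 1 and Ctrl replicates 1, 2 and 3. EXOSC4 (-0.13 ± 0.043) was called lower, but not without shMTA1 replicate 1 (-0.11, adjusted p = 0.066). It was also lost with scaling by library size only (-0.07, adjusted p = 0.21). EXOSC1 (-0.13 ± 0.054) was called lower, but not without shMTA1 replicates 2 or 3 or Ctrl replicates 1 or 3 (adjusted p of 0.13, 0.17, 0.058 and 0.18). With all libraries, EXOSC1 also lost the call with scaling by library size only (-0.06, adjusted p = 0.35). The same held with limma on log2(FPKM + 0.1) (adjusted p = 0.33), no filter (0.10) and the DESeq2 Wald test (0.0865). EXOSC2, the uncalled subunit with the highest CPM, had 136, 142 and 139.7 CPM in shMTA1 and 136, 137 and 140.4 CPM in Ctrl (0.01 ± 0.039, edgeR adjusted p = 0.80). EXOSC3 (0.03) and EXOSC10 (0.03) did not pass. EXOSC10 passed as higher with scaling by library size only (0.09, adjusted p = 0.045).

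Per length, the levels of the subunits kept much of their order. In the deposited FPKM values, EXOSC4 was the highest exosome gene at 47.6 ± 1.60 FPKM in shMTA1 and 49.9 ± 0.476 FPKM in Ctrl (SD, n = 3 each). EXOSC6 was the lowest at 4.20 ± 0.235 FPKM in shMTA1 and 3.42 ± 0.0351 FPKM in Ctrl. The highest was 11.3 times the lowest in shMTA1 and 14.6 times in Ctrl. EXOSC9 and EXOSC7 exchanged places. EXOSC9 was at 21.3 ± 0.0833 FPKM in shMTA1 and 25.7 ± 0.508 FPKM in Ctrl, and EXOSC7 was at 24.2 ± 0.608 FPKM in shMTA1 and 20.8 ± 0.751 FPKM in Ctrl. In Ctrl no neighbours in this order overlapped over libraries. In shMTA1, EXOSC3 at 4.35 ± 0.225 FPKM overlapped with EXOSC6, and EXOSC8 with EXOSC5.

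The CNOT genes spread more widely. CNOT8 at 12.8 ± 0.711 FPKM and CNOT9 at 11.5 ± 0.807 FPKM were the highest in shMTA1, with every CNOT8 library above every CNOT9 library. In Ctrl the order was the other way round, and CNOT9 at 11.2 ± 0.323 FPKM was above CNOT8 at 9.94 ± 0.420 FPKM without overlap. CNOT6L was the lowest at 0.297 ± 0.0416 FPKM in shMTA1 and 0.367 ± 0.0306 FPKM in Ctrl. The highest was 43.1 times the lowest in shMTA1 and 30.5 times in Ctrl. CNOT6, the third in Ctrl at 4.21 ± 0.106 FPKM, was at 2.84 ± 0.106 FPKM in shMTA1, below CNOT1 at 3.32 ± 0.0755 FPKM. In Ctrl, CNOT1, CNOT7, CNOT11 and CNOT10 lay between 3.46 and 3.60 FPKM in mean, and each overlapped with the next.

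**Figure D4:**
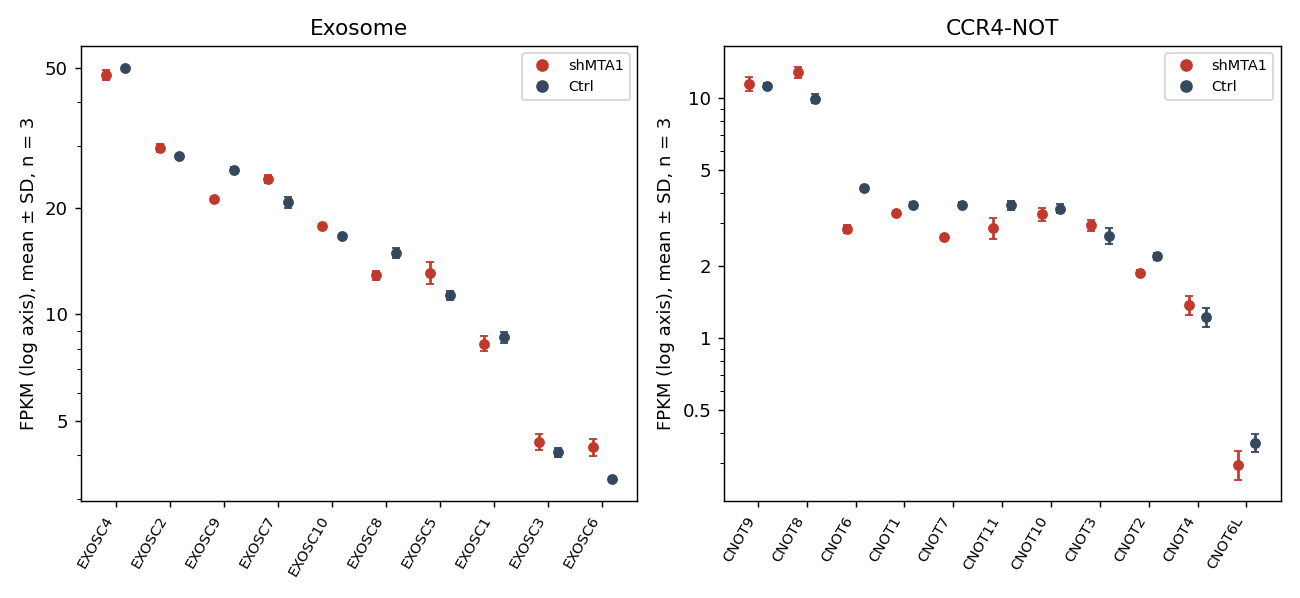
Mean ± SD of FPKM (n = 3) on a log axis for the 10 exosome genes and the 11 CNOT genes, shMTA1 left of Ctrl, ordered by the level in Ctrl. EXOSC4 is highest in both groups, CNOT6L is lowest, and the points of EXOSC9 and EXOSC7 cross between groups.

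Of the nonsense-mediated decay factors, 4 of 10 rose, 1 fell and 5 did not pass, with a median of 0.11. The 50% called is near the 58.1% of all tested genes, so the split is a description of single genes. UPF1, the helicase at the centre of the pathway, rose. UPF1 (ENSG00000005007.13, chromosome 19) had 31.8, 28.9 and 29.8 CPM in shMTA1 libraries and 23.0, 24.1 and 23.3 CPM in Ctrl libraries, with no overlap (0.36 ± 0.054, edgeR adjusted p = 8.9e-06). SMG5, which binds phosphorylated UPF1, rose as well. SMG5 (ENSG00000198952.8, chromosome 1) had 78.4, 78.2 and 79.4 CPM in shMTA1 and 62.6, 60.7 and 63.3 CPM in Ctrl (0.34 ± 0.042, edgeR adjusted p = 9.9e-07).

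The paralogs UPF3A and UPF3B, which link UPF2 to the exon junction complex, moved in opposite directions. UPF3A had 200.4, 202 and 195 CPM in shMTA1 and 164, 159.9 and 165 CPM in Ctrl, with no overlap (0.29 ± 0.039, edgeR adjusted p = 2.4e-06). UPF3B had 223, 232 and 212 CPM in shMTA1 and 251, 228 and 245 CPM in Ctrl, and here the groups overlapped. Its fall of -0.12 ± 0.045 (edgeR adjusted p = 0.030) did not pass without shMTA1 replicates 1 or 3 or Ctrl replicates 1 or 3 (adjusted p of 0.053, 0.10, 0.12 and 0.094), nor with scaling by library size only (0.35). UPF3A has processed pseudogenes, of which UPF3AP2 held 174 to 237 counts in shMTA1 and 176 to 182 counts in Ctrl, so a part of its reads may be shared.

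UPF2 had the highest CPM of the uncalled genes of the class, and 1 library stood apart. UPF2 had 79.3, 101 and 78.0 CPM in shMTA1 and 92.6, 90.8 and 95.0 CPM in Ctrl (-0.11 ± 0.068, edgeR adjusted p = 0.19). The second shMTA1 library was above every Ctrl library and the other two were below them. Without it the log2 fold change was -0.24 (adjusted p = 0.00089). SMG9, a regulator of the SMG1 kinase, rose by 0.17 ± 0.068 (edgeR adjusted p = 0.042), a call lost without shMTA1 replicates 1 or 2 or Ctrl replicate 3 (adjusted p of 0.050, 0.13 and 0.28). With all libraries, SMG9 also lost its call under the DESeq2 Wald test (adjusted p = 0.124). The kinase SMG1 (0.16 ± 0.091), which has near-identical pseudogene copies, the endonuclease SMG6 (0.04) and SMG8 (0.05) did not pass.

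The ZFP36 family held the lowest log2 fold change of the members. ZFP36L2 (ENSG00000152518.8, chromosome 2) had 17.7, 17.5 and 15.8 CPM in shMTA1 libraries and 29.0, 29.5 and 27.1 CPM in Ctrl libraries (-0.75 ± 0.060, edgeR adjusted p = 1.9e-09). Its paralog ZFP36L1 had 25.7, 27.4 and 23.9 CPM in shMTA1 and 20.6, 18.7 and 20.5 CPM in Ctrl (0.36 ± 0.061, edgeR adjusted p = 3.8e-05). Neither overlapped between groups, in opposite directions. ZFP36, tristetraprolin, had 4.07, 4.67 and 5.06 CPM in shMTA1 and 5.37, 4.27 and 4.32 CPM in Ctrl and did not pass (-0.01 ± 0.120, edgeR adjusted p = 0.93).

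In several pairs of related genes the proportions did not overlap between the groups. The log2 ratio of their FPKM values within each library does not depend on how libraries were scaled. For CNOT8 over CNOT7 it was 2.22, 2.22 and 2.39 in shMTA1 and 1.39, 1.53 and 1.48 in Ctrl, a difference in means of 0.81. CNOT8 thus had 4.67 to 5.25 times the FPKM of CNOT7 in shMTA1 and 2.63 to 2.89 times in Ctrl. For ZFP36L2 over ZFP36L1 the log2 ratio was -0.05, -0.17 and -0.12 in shMTA1 and 0.97, 1.14 and 0.88 in Ctrl, a difference of -1.11. The pair was near equal in shMTA1, whereas ZFP36L2 led in Ctrl. For CSTF2T over CSTF2 the log2 ratio was -0.57, -0.69 and -0.76 in shMTA1 and -0.01, -0.15 and 0.06 in Ctrl, a difference of -0.64.

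Smaller differences without overlap were found for UPF3B over UPF3A (means of 1.06 in shMTA1 and 1.47 in Ctrl, difference -0.41), PABPC4 over PABPC1 (-1.49 and -1.82, difference 0.33) and CPSF7 over CPSF6 (-2.65 and -2.89, difference 0.25). The exact 2-sided permutation p of each of these 6 pairs was 0.1, the smallest that 3 against 3 libraries can give, and 0.18 when adjusted over the 11 pairs compared, so none can pass 0.05. In the other 5 pairs the groups overlapped. They were CNOT6L over CNOT6 (difference 0.25), DCP1B over DCP1A (0.11), PAN3 over PAN2 (-0.16), XRN2 over XRN1 (0.35) and ZFP36L1 over ZFP36 (0.38).

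**Figure D5:**
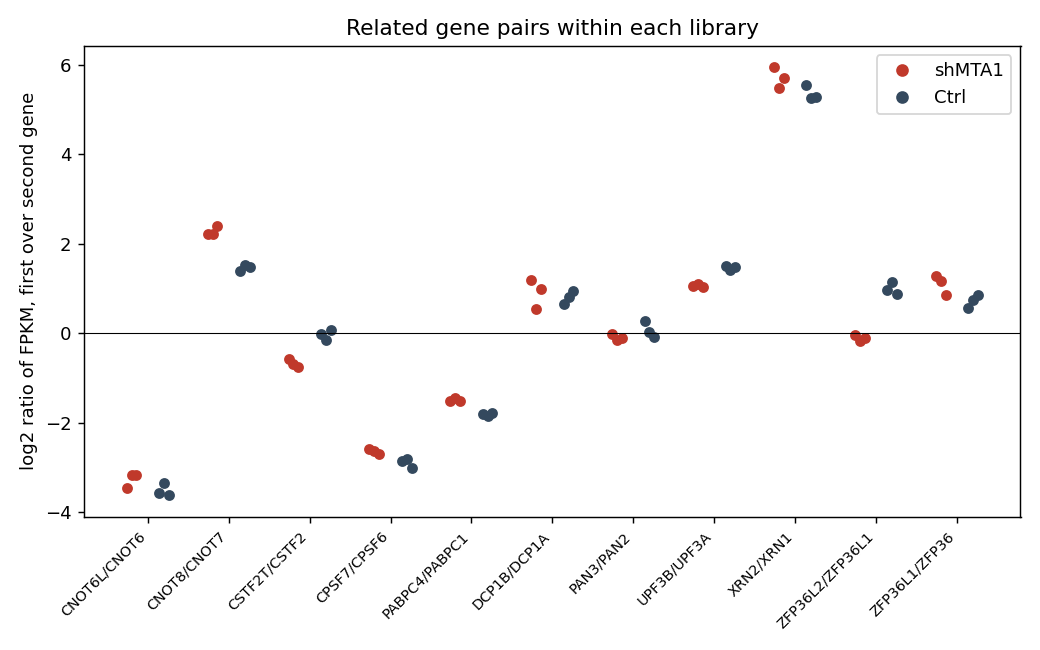
Log2 ratio of FPKM of the first gene over the second in each library, for the 11 related pairs, shMTA1 left of Ctrl. The points of CNOT8/CNOT7 are higher and those of ZFP36L2/ZFP36L1 and CSTF2T/CSTF2 lower in shMTA1, by 0.81, 1.11 and 0.64 between means, while PAN3/PAN2 and DCP1B/DCP1A overlap.

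Partners of these machines that the symbols do not capture were listed separately. In 6 lists of partner and regulator genes, 85 genes were tested and 21 rose and 21 fell (49.4% called, against 58.1% of all tested genes). Among 13 partners of cleavage and polyadenylation, 1 rose and 5 fell (7.69% and 38.5%, against 29.5% and 28.6% of all tested genes). The median was -0.06. The termination factor PCF11 rose (0.28 ± 0.049), whereas WDR82, a subunit of a phosphatase complex that acts in termination, fell to 39.1 ± 1.10 CPM in shMTA1, against 59.5 ± 2.75 CPM in Ctrl (-0.61 ± 0.049). The phosphatase SSU72 fell too (-0.45 ± 0.042), as did the main poly(A) polymerase PAPOLA (-0.17), chosen after its value was seen, whose call was lost with scaling by library size only (-0.11, adjusted p = 0.052).

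Of 14 partners of deadenylation, 3 rose and 5 fell (21.4% and 35.7%, against 29.5% and 28.6% of all tested genes). The median was 0.08. The 5 that fell were the antiproliferative proteins BTG1, BTG2, BTG3, TOB1 and TOB2, which recruit CCR4-NOT deadenylases to messages. BTG2 had 5.41 ± 0.512 CPM in shMTA1 and 8.72 ± 0.334 CPM in Ctrl (-0.69 ± 0.091), and TOB1 had 20.9 ± 1.58 CPM in shMTA1 and 28.9 ± 1.94 CPM in Ctrl (-0.47 ± 0.064). TOB2 (-0.52), BTG3 (-0.42) and BTG1 (-0.32), chosen after their values were seen, also fell, and all shMTA1 libraries were below all Ctrl libraries in each of the 5. TNKS1BP1, a partner of CCR4-NOT, rose to 300.2 ± 8.56 CPM in shMTA1, against 215 ± 9.38 CPM in Ctrl (0.48 ± 0.042). ANGEL1, a relative of the CCR4 nucleases, rose as well (0.90 ± 0.164).

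Of 12 partners of decapping, 2 rose and 5 fell (16.7% and 41.7%, against 29.5% and 28.6% of all tested genes). The median was -0.03. The decapping enzyme NUDT16 rose (0.56 ± 0.046), as did LSM14B (0.29 ± 0.045), while the coactivator PNRC1 (-0.71 ± 0.058) and the helicase DDX6 (-0.27 ± 0.062) fell. Of 18 partners of the exosome, 8 rose and 1 fell (44.4% and 5.56%, against 29.5% and 28.6% of all tested genes), with a median of 0.10. The scaffold of the nuclear exosome targeting complex, ZCCHC8, rose to 20.5 ± 1.14 CPM in shMTA1, against 13.0 ± 1.36 CPM in Ctrl (0.66 ± 0.072). The helicase MTREX rose (0.35 ± 0.056), and the 3 genes of the SKI complex, which feeds messages to the cytoplasmic exosome, also passed as higher. They were SKIC3 (0.36), SKIC8 (0.22) and SKIC2 (0.11), chosen after their values were seen and listed under the older symbols TTC37, WDR61 and SKIV2L. The call of SKIC2 was lost without shMTA1 replicate 3 or any 1 Ctrl library (SKIV2L adjusted p of 0.171, 0.155, 0.0585 and 0.0941). With all libraries, SKIC2 also lost its call under the DESeq2 Wald test (SKIV2L adjusted p = 0.0841). DIS3, the catalytic nuclease of the core, was called lower at -0.20 ± 0.062, a call lost without Ctrl replicate 2 (-0.16, adjusted p = 0.064) and with scaling by library size only (-0.14, adjusted p = 0.074).

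Of 12 tested partners of nonsense-mediated decay, 6 rose and 2 fell (50% and 16.7%, against 29.5% and 28.6% of all tested genes). The median was 0.15. The release factor GSPT1 (0.33 ± 0.039) and the ATPase RUVBL1 (0.29 ± 0.039) rose, and RNPS1 (-0.26 ± 0.043) and the exon junction protein MAGOHB (-0.20 ± 0.041), which has a near-identical paralog, fell. Of 16 other regulators of message stability, 1 rose and 3 fell, and 12 did not pass, with a median of 0.03. Here the shares were 6.25% and 18.8%, against the same 29.5% and 28.6%. RC3H2, a roquin protein (-0.66 ± 0.062), and YTHDF2, which brings CCR4-NOT to methylated messages (-0.43 ± 0.050), fell. CPEB4 (0.32 ± 0.133) rose at an edgeR adjusted p of 0.044. The call of CPEB4 was lost without any 1 library except Ctrl replicate 2, with adjusted p of 0.061, 0.099 and 0.079 without shMTA1 replicates 1, 2 and 3 and of 0.19 and 0.053 without Ctrl replicates 1 and 3. With all libraries, CPEB4 also lost its call with no filter (adjusted p = 0.0537) and the DESeq2 Wald test (0.135).

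Genes known as substrates of these pathways changed in both directions. Of 17 tested messages with classic AU-rich elements, the kind bound by ZFP36 proteins, 7 rose and 7 fell (41.2% each way, against 29.5% and 28.6% of all tested genes), with a median of 0.09. VEGFA (0.89 ± 0.046) and PLAUR (0.81 ± 0.043) rose, while IL6 (-1.07 ± 0.043) fell and the cyclin CCND1 fell to 6.93 ± 0.202 CPM in shMTA1, against 15.0 ± 0.380 CPM in Ctrl (-1.11 ± 0.072). Of 21 transcripts known as substrates of nonsense-mediated decay, 13 rose and 5 fell (61.9% and 23.8%, against the same 29.5% and 28.6%), with a median of 0.43. This list, like the others, was written with earlier results of these data known. The host gene of small nucleolar RNAs SNHG1 had 53.9 ± 1.23 CPM in shMTA1 and 25.2 ± 0.573 CPM in Ctrl (1.09 ± 0.049). Further non-coding genes of the list were chosen after their values were seen. SNHG5 (0.84), SNHG15 (0.77) and SNHG12 (0.70) rose, but GAS5 did not pass (-0.04, edgeR adjusted p = 0.39). ZFAS1 was called lower (-0.13), a call lost with scaling by library size only (adjusted p = 0.21). DDIT3 rose (1.23 ± 0.045) and GADD45B (-0.75 ± 0.056) and the splicing factor SRSF3 (-0.36 ± 0.042) fell. The list also holds CHAC1 (2.22), ASNS (0.55), CARS1 (0.32), ATF3 (-0.19) and ATF4 (-0.19), chosen after their values were seen, which like DDIT3 are known genes of the amino acid and endoplasmic reticulum stress responses. Message levels alone do not separate synthesis from decay.

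Last, coding length was set beside the changes. Coding length was known for all 58 tested members, with a median of 1708.5 bases, and for 12599 tested protein-coding genes, with a median of 1398 bases. Spearman's rho between coding length and log2 fold change was 0.262 over the members and 0.225 over all these genes, which share their 6 libraries, and is given as a description. The median coding length was 1816.5 bases for members called higher, 1465.5 bases for members called lower and 2095.5 bases for those not called. The part of length in these changes was not tested.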

How the data were processed

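Total RNA libraries of PC-3 cells were made with a stranded kit and sequenced as paired reads, per the labels. The authors deposited read counts per gene without normalization and FPKM values scaled by the authors for length and depth. The strand setting of the count, the aligner and the build were not given in the sources used here. Whether reads of overlapping antisense genes were kept apart is therefore not known. The submitters' processing notes name DESeq2. Columns with the prefix shMTA1 belong to the MTA1 samples by name, and NC columns went to Ctrl by elimination.

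edgeR 4.0.16 in R 4.3.3 was run on the counts with filterByExpr, TMM scaling and the 2-sided quasi-likelihood test with group as the only term. Benjamini-Hochberg adjustment ran over all 15423 tested genes, with a threshold of 0.05. The test against a minimum fold of 1.2 was edgeR's glmTreat. CPM use TMM-scaled library sizes. The replicate spread corresponded to a biological coefficient of variation of 4.45%. Related pairs were compared by the log2 ratio of FPKM with exact permutation over libraries. Coding lengths came from GENCODE and upstream sequences from RefSeq. The alternatives used other scalings and filters, DESeq2 1.42.0, limma 3.58.1 with pseudocounts of 0.1 and 1 on FPKM, the replicate number as a block, and each library left out. The tests were checked on simulated counts in which few genes changed, as many up as down. That check cannot speak for the scaling in these data, where most tested genes were called.

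The members and lists were chosen with earlier results of these data known. Values in every library are given for up to 3 called members of each role with the largest log2 fold change at a mean of 1 CPM or more, 1 called in the direction fewer took, and the most abundant uncalled one. From each further list, up to 2 called genes in each direction with the smallest p are named. SKIC2, SKIC3 and SKIC8 were matched through older symbols. Some items are counted in the totals but not reported here by name.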

Additional observations from a re-analysis of the deposited data

How the results depend on the processing

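Of the 32 called members, 20 kept their call and direction in each of the 17 alternatives tried, 10 higher and 10 lower. The other 12 lost the call in at least 1 alternative, 8 uncalled members gained one, and no called member changed direction. The calls most often lost were those of EXOSC1 and EXOSC5 (9 alternatives each), CPSF1 (8) and UPF3B (7). The count of members called lower was 16 and became 10 with limma on log2(FPKM + 0.1) and 10 on log2(FPKM + 1). The count of members higher past the 1.2-fold test was 5 and became 9 with scaling by library size only and 3 with no filter. With 1 library left out it was 3 to 5, and members called were 12 to 14 higher and 14 to 16 lower. It was 3 without shMTA1 replicate 1, Ctrl replicate 1 or Ctrl replicate 3. Scaling by library size only moved the median log2 fold change of all genes by 0.07. Same-numbered libraries deviated together with correlations of 0.0666, -0.0207 and 0.0191 only. Such values cannot show whether same-numbered libraries were prepared together, and the main test did not pair them. With the replicate block, 17 members were called higher and 16 lower, and 4638 and 4501 of all genes, and XRN2 passed as higher (0.12, adjusted p = 0.032). The DESeq2 Wald test called 13 members higher and 15 lower. Of the 11 pairs, only DCP1B over DCP1A changed direction in an alternative, at -0.03 without shMTA1 replicate 1. The cause of these shifts was not tested. Members under 5 CPM, such as CNOT6L, XRN1 and ZFP36, had standard errors of 0.120 to 0.156, so changes of that size were not detectable in them.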
